A study of Mus musculus with 12 samples.

Results

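The genes described here are the uptake transporters of organic ions and bile salts, which were all genes with a symbol beginning Slco, Slc22a or Slc10a followed by a digit. Of the 22564 genes listed, 47 met this rule, with 15 Slco, 25 Slc22a and 7 Slc10a genes. Liver RNA came from male C57BL/6 mice, 8 weeks of age, of either genotype, wild type or with Mettl3 knocked out in the liver alone (Mettl3 cKO). Mettl3 is the catalytic subunit of the enzyme that writes N6-methyladenosine (m6A) into mRNA. The sources used here give neither what drives the deletion nor which part of the gene it removes. RNA was sequenced before (input) and after (IP) precipitation with an antibody against m6A. The labels give 12 samples, in 4 groups of 3, and of these 1 input library and 1 IP peak list per genotype could be used.

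These are named case and control in the files. The reading taken was that control means wild type and case means Mettl3 cKO, the 2 genotypes of the series, although no label says so. Below, control and case stand for the library labelled control and that labelled case, and levels are those of their inputs. With 1 library per genotype there is no replicate check, no test was possible, and each difference compares these libraries and not the genotypes. Intervals below are exact 95% intervals that cover counting error only, and they are too narrow where fragments are PCR copies of the same molecule. The inputs held 1737350 fragments (control) and 3564803 fragments (case), of which 2356 and 8679 fell in the 47 genes. Mettl3 itself had 12 fragments (3.44 FPKM) in control and 17 fragments (2.91 FPKM) in case. FPKM is a fragment count scaled by transcript length and by library size. Scaled Mettl3 fragments had a case to control ratio of 1.21 (0.545 to 2.78), so the gene targeted was not detectably lower in the library labelled case, and every direction below rests on the labels alone.

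Hepatocytes take up bile salts, drugs and hormones from the blood across their sinusoidal membrane. Slc10a1 (NTCP) carries conjugated bile salts together with sodium, and the Slco proteins (OATPs) carry bile salts, bilirubin, steroid conjugates and many drugs without sodium. The Slc22a family holds the organic cation transporters (OCTs), the carnitine carriers (OCTNs) and the organic anion transporters (OATs). Bile salts taken up are secreted again into the canaliculus by ABC pumps, and the nuclear receptors FXR, PXR and CAR are known to control several of these genes.

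The bases just upstream of the 3 bile salt carriers Slco1b2, Slc10a1 and Slco1a1 are shown as examples chosen after their values were seen, Slco1b2 and Slc10a1 for the highest levels in case and Slco1a1 for the largest difference. All 3 are among the genes with the letters AGGTCA in a promoter, so the choice says nothing of how common that motif is. They are RefSeq promoter sequences on GRCm38.p6, the assembly with the coordinates of mm10, at chr6:141629268-141629451 (plus strand), chr12:80968706-80968955 (minus strand) and chr6:141946963-141947212 (minus strand). Each run is written 5′ to 3′ and holds the 250 bases before the RefSeq start, except that of Slco1b2. That run ends after 184 bases, where the gene begins by the reference gene coordinates used here. Capitals mark AGGTCA, the core site of many nuclear receptors, and TATAAA, the letters of a TATA box, each on either strand.
Slco1b2: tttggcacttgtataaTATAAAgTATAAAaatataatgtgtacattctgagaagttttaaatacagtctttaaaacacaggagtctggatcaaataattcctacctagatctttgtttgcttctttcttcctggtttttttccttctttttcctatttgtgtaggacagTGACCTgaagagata
Slc10a1: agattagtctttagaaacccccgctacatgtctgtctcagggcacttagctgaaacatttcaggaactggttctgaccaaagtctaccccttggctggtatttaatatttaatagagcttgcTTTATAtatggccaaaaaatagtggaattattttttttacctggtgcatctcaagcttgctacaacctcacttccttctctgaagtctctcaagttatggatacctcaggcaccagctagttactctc
Slco1a1: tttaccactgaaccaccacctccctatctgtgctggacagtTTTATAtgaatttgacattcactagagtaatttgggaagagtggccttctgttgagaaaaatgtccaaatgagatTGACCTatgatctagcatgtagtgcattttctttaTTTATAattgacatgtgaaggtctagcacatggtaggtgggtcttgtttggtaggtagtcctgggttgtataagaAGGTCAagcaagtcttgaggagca
AGGTCA occurred in 6 of the 46 promoters found for 40 of the 47 genes (13.0%), against 16.3% of all 32851 mouse promoters of the same length, 250 bases before to 50 after the start. TATAAA occurred in 9 (19.6%, against 13.6% of all). The HNF4A-type repeat CAAAGTCCA was found in 0 member promoters and in 0.475% of all. Both strands were searched, and no match of 1 motif overlapped a match of another in the member promoters. The promoters with AGGTCA belonged to Slc10a1, Slco1a1, Slco1b2, Slc22a14, Slc22a27 and Slco4a1. In Slc10a1 it lay in front of a second RefSeq start within the gene, which is not shown. In Slco1a1 the letters occurred on both strands, 24 and 134 bases before the start. In Slco1b2 AGGTCA, on the other strand, began 81 bases before the start. The marked TATAAA stretches of Slco1b2 began 234 and 227 bases before the start. On the other strand, those of Slco1a1 began 209 and 99 bases before the start, and that of Slc10a1 began 128 bases before it. A match describes letters, not bound sites.

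Of the 47 genes, 16 were listed at 0 FPKM in both inputs, which allows up to 3 fragments in each. A mean level of at least 1 FPKM over both inputs was reached by 18 genes, and these were compared. Apart from Slco3a1, which reached the limit through control alone, each had at least 1 FPKM in both inputs. The inputs were set against each other on the scale log2(FPKM + 1), as case minus control, where differences of low genes come out too small. A difference of 1, or 2-fold, was called higher or lower. Of the 18 genes, 11 were higher in case, against 23.6% of all 9584 genes compared, 1 was lower, against 13.2% of all, and 6 lay within the limit. Over all 47 genes without the level limit 11 were higher, against 10.3% of all, and 2 lower, against 6.81% of all. The median difference of the 18 genes was 1.36, and that of all genes compared was 0.41. Summed over the 47 genes, FPKM was 174 in control and 549.7 in case, a ratio of 3.16.

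The count depended on how the inputs were scaled. With quantile normalization 7 of the 18 genes were higher and 1 lower, with median centring 9 and 1, and with equal non-mitochondrial totals 6 and 1. Over all genes the split of higher to lower calls was 2260 to 1264 as deposited, 1332 to 1503 with quantile normalization, 1108 to 1763 with median centring and 768 to 2003 with equal totals. The median of all genes was 0.41 as deposited, -0.15 with equal totals and 0.16 with quantile normalization. The median of the 18 genes stayed above that of all genes on each of these scales, by 0.95 as deposited and with median centring, 0.81 with equal totals and 0.72 with quantile normalization. The genes called higher in each of the 6 settings tried per gene were Slc10a1, Slc10a5, Slc22a7, Slc22a26, Slc22a30 and Slco1a1, and Slco3a1 was called lower in each. Of the 18 genes 1 changed sign, Slc22a15, at 0.24 as deposited, -0.17 with median centring and -0.18 with equal totals.

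**Figure D1:**
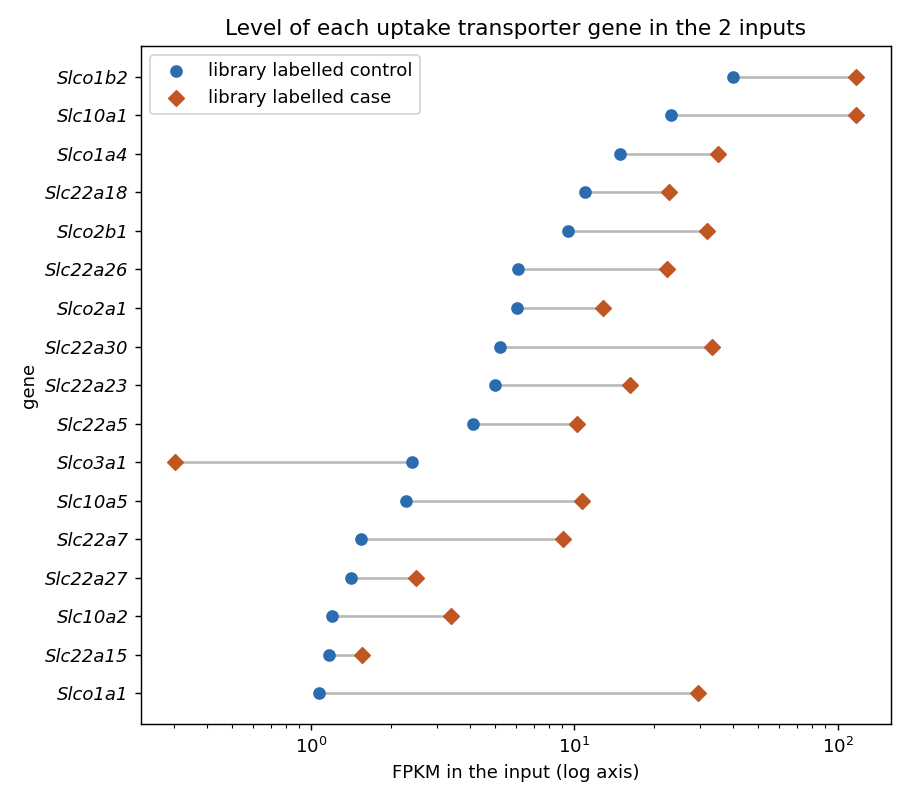
Level in FPKM (log axis) of 17 uptake transporter genes with a mean of at least 1 FPKM, as a circle for the input of the library labelled control and a diamond for that labelled case, 1 library each. Slco3a1 is the gene whose diamond lies to the left, and Slco1a1 has the longest line, from 1.07 to 29.6 FPKM.

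The bile salt carriers of the sinusoidal membrane were higher in case. Slco1b2 (OATP1B2; chromosome 6, 141629452 to 141686646, plus strand), the main OATP of mouse hepatocytes for bile salts, bilirubin and statins, had 40.2 FPKM in control and 118 FPKM in case, from 698 and 2324 fragments. It was the highest of the 47 genes in both inputs. Its scaled fragments had a case to control ratio of 2.84 (2.61 to 3.10). Slc10a1 (NTCP; chromosome 12, 80953185 to 80968705, minus strand) had 23.2 and 118 FPKM, from 198 and 1187 fragments, with a ratio of 5.12 (4.40 to 5.98).

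Slco1a1 (OATP1A1; chromosome 6, 141907281 to 141946962, minus strand), a carrier of bile salts and steroid conjugates whose mRNA is known to be more abundant in male than in female mouse liver, had the largest difference of the 18 genes. It was listed at 1.07 FPKM from 18 fragments in control and at 29.6 FPKM from 617 fragments in case. Its ratio was 29.3 (18.4 to 49.7), and its rank among the 18 compared genes was 18 in control and 7 in case. Both groups were labelled male. Slco1a4 (OATP1A4), which also carries digoxin, had 14.9 and 35.1 FPKM from 159 and 520 fragments, a ratio of 2.79 (2.33 to 3.36). Slco2b1 (OATP2B1), a carrier of steroid sulfates, had 9.47 and 32.0 FPKM from 191 and 650 fragments, a ratio of 2.91 (2.47 to 3.43). These calls were not alike in stability. On the log2 scale Slco1a1 differed by 3.89 and Slc10a1 by 2.31 as deposited, and both passed the limit in all settings tried. Slco1b2, at 1.54 as deposited, fell under the limit with quantile normalization (0.60) and equal totals (0.81). Slco2b1, at 1.65, did so in the same settings (0.98 and 0.96), and Slco1a4, at 1.18, with these (0.44 and 0.48) and with median centring (0.77).

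The remaining 2 compared Slco genes carry prostaglandins, among other compounds, and were not called higher. Slco2a1, the prostaglandin transporter, had 6.03 FPKM in control and 12.8 FPKM in case, a log2 difference of 0.98, just under the limit. Slco3a1, which is expressed in many tissues, had 2.42 FPKM from 34 fragments in control and 0.304 FPKM from 6 fragments in case. Its ratio was 0.151 (0.0517 to 0.363), and it was the 1 compared gene that was lower. The 15 Slco genes thus held 6 compared genes, with 4 higher, 1 lower and 1 within the limit. Among all genes compared 23.6% were higher and 13.2% lower.

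Of the 7 Slc10a genes 3 were compared, and besides Slc10a1 these were Slc10a5 and Slc10a2. Slc10a5, an orphan member of the family known from liver and kidney, had 2.28 FPKM from 48 fragments in control and 10.7 FPKM from 265 fragments in case, a ratio of 4.72 (3.46 to 6.55). Slc10a2 (ASBT), the bile salt carrier of ileum, kidney tubule and bile duct cells, had 1.20 and 3.39 FPKM, from 10 and 33 fragments. Its ratio was 2.82 (1.36 to 6.41) and its log2 difference 0.99, just under the limit. Of the 3 compared Slc10a genes 2 were higher, against 23.6% of all genes compared, and 1 lay within the limit.

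Slc22a5 (OCTN2), the sodium-dependent carnitine carrier, had 4.12 FPKM in control and 10.2 FPKM in case. Its FPKM ratio was 2.47, but its ratio of scaled fragments was 1.86 (1.38 to 2.52), from 67 and 146 fragments, and its log2 difference of 1.13 was the smallest of those called. It fell under the limit in 4 of 6 settings, with 0.50 under equal totals as the lowest value. Slc22a15, which carries zwitterions in human, had 1.17 and 1.56 FPKM and a ratio of 1.17 (0.589 to 2.39), so no difference was detectable at this depth.

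Of the 4 compared genes of the organic anion transporter type, 3 were higher. Slc22a7 (OAT2), a liver carrier of organic anions, had 1.54 FPKM from 16 fragments in control and 9.02 FPKM from 110 fragments in case, a ratio of 5.87 (3.46 to 10.6). Slc22a30, of a cluster of rodent OAT-related genes on chromosome 19, had 5.20 and 33.4 FPKM, a ratio of 6.31 (4.88 to 8.27). Its neighbour Slc22a26 had 6.11 and 22.5 FPKM, a ratio of 3.64 (2.85 to 4.69). Slc22a27, in the same cluster, had 1.41 and 2.49 FPKM from 15 and 32 fragments, a ratio of 1.82 (0.959 to 3.62), and no difference was detectable at this depth. Genes of this cluster are close copies of each other, among which reads can be split, and their values are uncertain. The orphan Slc22a23 had 4.97 and 16.3 FPKM, a ratio of 3.29 (2.73 to 4.00), and was under the limit with equal totals alone, at 0.88. The orphan Slc22a18, an imprinted gene, had 11.0 and 22.9 FPKM, a ratio of 2.01 (1.55 to 2.61) and a log2 difference of 0.99, just under the limit. Of the 9 compared Slc22a genes, 5 were higher, against 23.6% of all genes compared, and 4 within the limit.

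**Figure D2:**
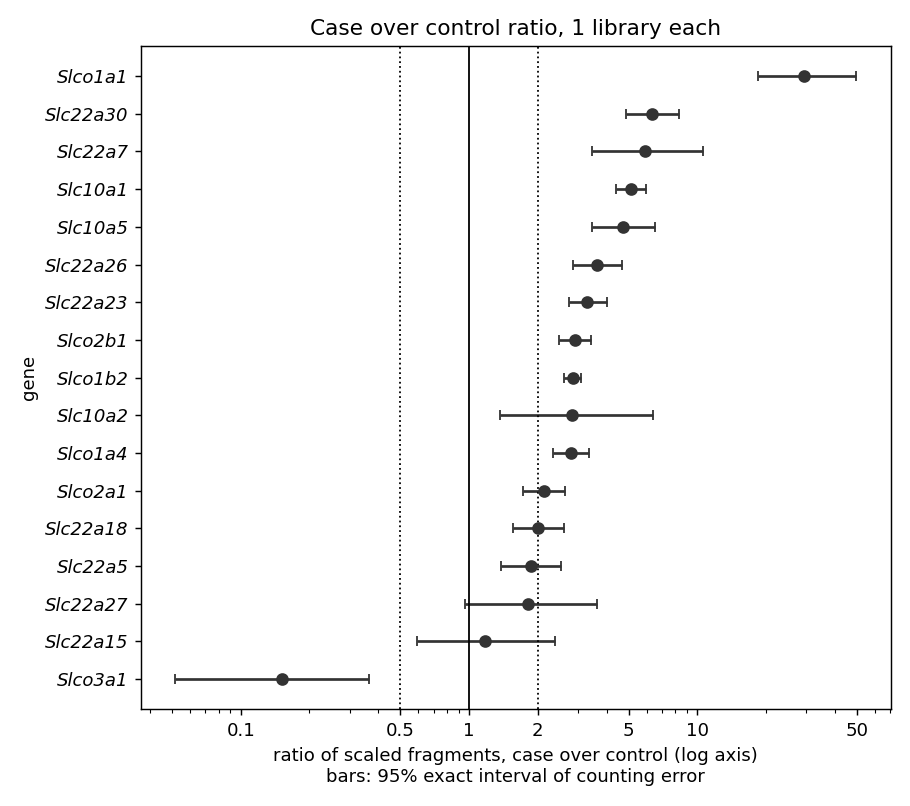
Ratio of scaled fragments, case over control (log axis), for 17 compared genes; points are the ratios of 1 library each, bars the exact 95% intervals of counting error, the solid line marks 1 and the dotted lines 2-fold. The interval lies above 1 for 14 genes, holds 1 for Slc22a15 and Slc22a27, and lies below 1 for Slco3a1. The same count was not made over all genes.

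Counting error alone was small for most of these genes. The interval of the ratio lay above 1 in 15 of the 18 genes, below 1 in 1, and held 1 in 2, and it lay wholly above 2 in 10. The same count was not made over all genes, whose median log2 difference was 0.41 as deposited. It therefore does not set these genes apart from the rest. The ratios use the deposited scaling alone. Spread between livers is not covered by the intervals. By family, the largest shift in share was that of Slc10a. Slco genes held 42.9% of the summed FPKM in control and 41.6% in case, Slc22a genes 41.2% and 34.2%, and Slc10a genes 15.8% and 24.2%.

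Below the level limit, 13 genes were listed above 0 in at least 1 input, with at most 14 fragments. Slc22a21 (OCTN3), a carnitine carrier in mouse, had 1.47 FPKM from 9 fragments in control and 0.197 FPKM from 4 fragments in case. Its ratio of scaled fragments was 0.380 (0.0854 to 1.36), so the second gene called lower without the limit was not detectably different by its fragments. Slc22a28, of the cluster on chromosome 19, had 0.192 and 1.15 FPKM from 2 and 14 fragments, a ratio of 5.98 (1.37 to 54.2). Slc10a3 had 0.552 and 0.434 FPKM, from 5 fragments in each. Slc22a29 had 3 and 2 fragments, and Slc10a7 had 5 and 0. The kidney carriers Slc22a6 (OAT1), Slc22a8 (OAT3), Slc22a12 (URAT1) and Slc22a2 (OCT2) were among the 16 genes at 0 in both inputs.

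Genes that act after uptake were described by the same measure. Of 11 compared genes of bile salt and drug efflux 8 were higher, against 23.6% of all genes compared, 3 lay within the limit and 0 were lower, with a median log2 difference of 1.81. Abcg5, a subunit of the canalicular sterol pump, had 5.30 FPKM in control and 34.5 FPKM in case, and Abcc6, a hepatocyte ABC transporter, had 7.91 and 48.3. Abcc4, a basolateral pump, had 1.57 and 0.485 FPKM, a log2 difference of -0.79. The basolateral bile salt exporter genes Slc51a and Slc51b were at 0 in both inputs. Of 14 compared genes of bile acid synthesis and conjugation 14 were higher, with a median of 1.76. The hydroxylase genes Cyp7b1 (3.61) and Cyp27a1 (2.46) had the largest log2 differences of that list.

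Among nuclear receptors and factors of bile acid and drug transport, 13 of 17 were higher and 0 lower, with a median of 1.48. Onecut1 had 3.05 FPKM in control and 19.4 in case, and the fatty acid receptor gene Ppara had 7.41 and 40.9. Nfe2l2, which encodes the oxidative stress factor NRF2, had 18.9 and 9.57 FPKM, a log2 difference of -0.91. Genes whose proteins sort or anchor transporters at the membrane gave 3 of 10 higher and 2 lower, shares near those of all genes (23.6% and 13.2%), and a median of 0.53, near the 0.41 of all genes. The scaffold gene Slc9a3r1 had 20.3 and 57.4 FPKM and the motor gene Myo5b 2.42 and 6.21. The apical syntaxin gene Stx3 had 1.82 and 0.199 FPKM, and Ezr, which encodes the membrane linker ezrin, had 2.25 and 0.608. Both reached the level limit through control alone, so their calls as lower are not independent of that limit. Pooled over the 4 lists 38 genes were higher and 2, Stx3 and Ezr, lower as deposited. The counts were 24 and 2 under quantile normalization and 22 and 4 under equal totals.

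**Figure D3:**
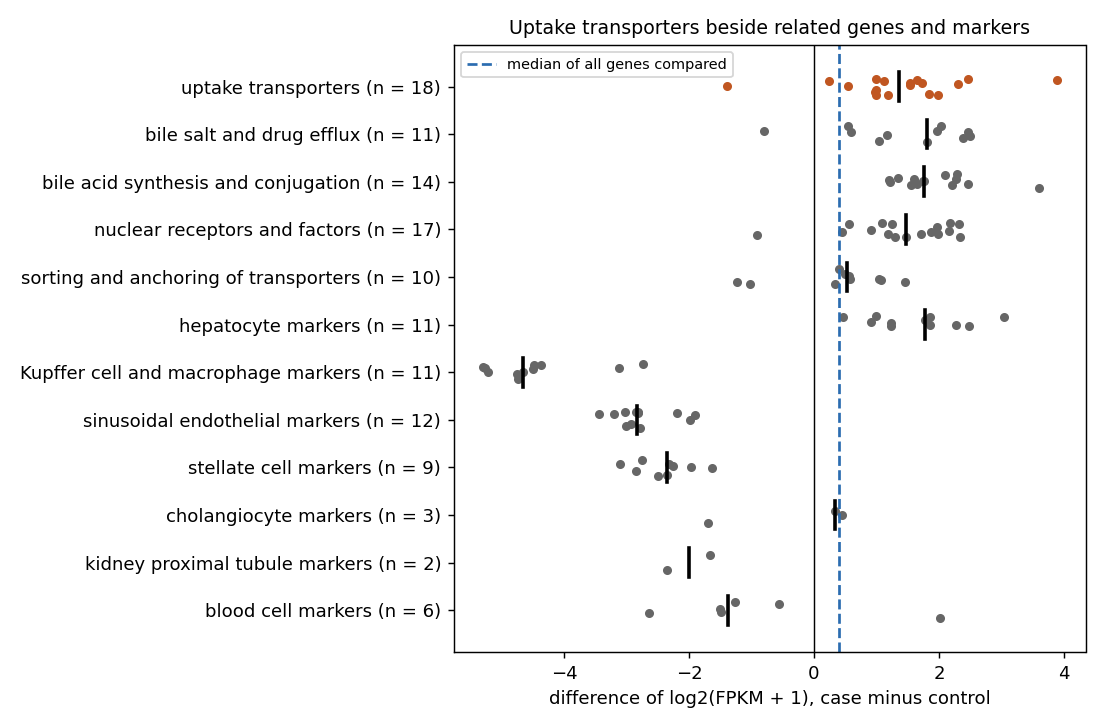
Difference of log2(FPKM + 1), case minus control, for the 18 uptake transporters (top row), 4 lists of related genes and 7 lists of cell type markers; each point is a gene with a mean of at least 1 FPKM, n is their number, black bars are medians and the dashed line is the median of all genes, 0.41. The transporter median of 1.36 lies beside the hepatocyte marker median of 1.77, and the Kupffer cell, endothelial and stellate cell markers lie to the left of 0.

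Markers of hepatocytes and of other liver cells also differed between the inputs. Of 11 hepatocyte markers 8 were higher in case and 0 lower, against 23.6% and 13.2% of all genes compared. Their median log2 difference was 1.77. The urea cycle gene Cps1 (63.5 and 533 FPKM) and the tyrosine aminotransferase gene Tat (86.7 and 489.9 FPKM) differed by the largest amounts. The defining markers of liver were present in both inputs, with Alb at 11189 and 21158 FPKM. All 11 compared Kupffer cell markers were lower, and the list summed to 653 FPKM in control and 16.5 FPKM in case. C1qc had 68.7 and 0.766 FPKM, and Csf1r had 785 fragments in control and 0 in case. Both reached the level limit through control alone, as did some other markers that were lower. The 12 sinusoidal endothelial markers were all lower (summed FPKM 319 and 33.5), with the largest differences at Stab2 and Fcgr2b, and so were the 9 compared stellate cell markers (summed FPKM 146 and 14.9), led by Ecm1 and Dcn.

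Cholangiocyte markers summed to 19.4 and 16.6 FPKM, with 1 of 3 compared genes lower. Of the 12 in that list 4 were at 0 in control and 8 in case, and Krt19, Krt7 and Epcam had 7, 2 and 3 fragments in control and 0 in case. Of 12 kidney tubule markers 9 were at 0 in control and 10 in case, Slc34a1 and Slc5a2 in both, and the 2 compared genes, Gatm and Cyp4b1, were lower. Of 6 compared blood cell markers 4 were lower and 1, the heme synthesis gene Alas2, was higher. In bulk tissue, fewer cells of a type and less RNA per cell cannot be told apart, and the part of cell makeup in the transporter differences was not tested.

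The m6A peak lists were examined for the same 47 genes. The control list held 59 peaks in 20 of them, out of 17175 peaks in all, and the case list held 29 peaks in 17 of them, out of 17277. Of the 18 compared genes 16 had a control peak, against 65.6% of all compared genes, and 14 a case peak, against 65.4%. Peaks occurred in both lists for 14 genes, in the control list only for 6 (Slc22a2, Slc22a5, Slc22a7, Slc22a18, Slc22a26 and Slco1a6) and in the case list only for 3 (Slc10a7, Slc22a15 and Slco3a1), and 24 genes had none. Peaks were more numerous in the control list for 15 genes, fewer for 4 and equal for 4. Over all genes, 7450 had a control peak and 8150 a case peak. Genes with peaks in a single list, or with more peaks in either list, were not counted over all genes.

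The lists differed in the values their peaks carry. The authors' false discovery rate of the member peaks ran from 1.12 to 5.79% in the control list and from 10.48 to 17.94% in the case list. The authors' median fold enrichment of IP over background was 32.4 and 12.9 for the member peaks. The whole lists differed in the same way. Over all peaks the median fold was 28.5 in the control list and 14.9 in the case list. The median rate over all peaks was 1.66% and 12.3%. These values are the authors' own and describe peaks within a list. By fold, the members' median percentile was 56.0 among control peaks and 42.4 among case peaks. With the false discovery rate limited to 15% the case list kept 20 of its 29 member peaks, in 14 genes. Over all genes it kept 12913 of 17277 peaks. The control list kept its 59 member peaks, as it could lose none, the highest rate of any control peak being 7.52%.

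**Figure D4:**
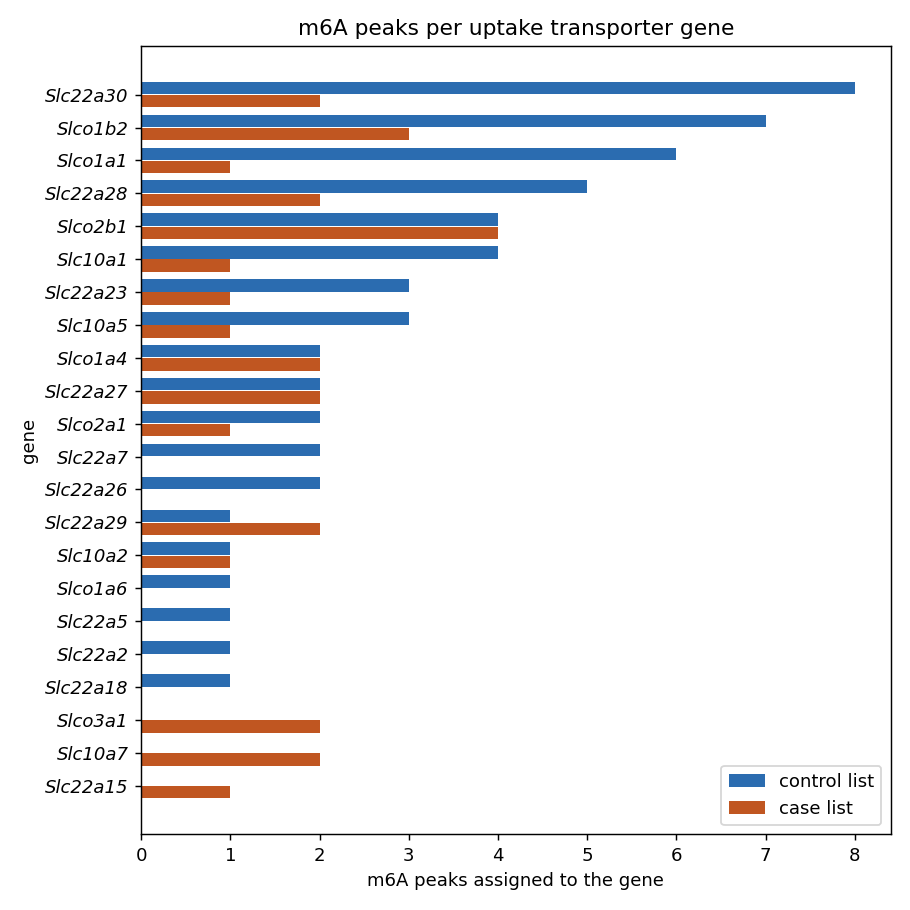
Number of m6A peaks assigned to 22 uptake transporter genes with at least 1 peak, in the control list (upper bar) and the case list (lower bar), 1 list each. Slc22a30 has 8 control and 2 case peaks, and Slco3a1, Slc10a7 and Slc22a15 have case peaks alone.

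By gene, Slc22a30 had 8 control and 2 case peaks, Slco1b2 had 7 and 3, Slco1a1 had 6 and 1, Slc22a28 had 5 and 2, and Slc10a1 had 4 and 1. Each of these genes had the lower input level in the control, but so had most of the 18 compared genes (ratio interval above 1 in 15). Slco2b1 had 4 peaks in both lists and Slco1a4 had 2, and both of these also had the lower input level in the control. Slco3a1, with the lower input level in the case library, had 0 control and 2 case peaks. Its larger case peak lay on chromosome 7, 74283618 to 74284446, at 96.9% of the gene length, with a fold enrichment of 74.2. Whether input level, depth or the peak threshold set these numbers was not tested.

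In Slco1b2 the longest of these peaks covered 1257 bases at the 3′ end of the gene (chromosome 6, 141685390 to 141686646) and had the same coordinates in both lists. Within the control list its fold enrichment of 164 stood at percentile 95.7, and within the case list its fold of 6.77 stood at percentile 17.2. A peak at 141683204 to 141683321 was also at the same coordinates in both. The Slco1b2 peak near 70% of the gene length (141669427 to 141669490 in the control list) stood at percentile 77.9 of the control and 87.1 of the case list. In Slc10a1 the shared peak covered the last 596 bases of the gene (chromosome 12, 80953185 to 80953780) and stood at percentile 84.3 of the control and 10.2 of the case list. The other 3 control peaks of Slc10a1 had no case counterpart.

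In Slco1a1 the peak shared by both lists lay near the start of the gene (chromosome 6, 141946579 to 141946854 in the control list). The control list gave its highest member fold enrichment, 312, to another Slco1a1 peak, at 141908743 to 141909129, which had no case counterpart. The input behind it held 18 fragments over the whole gene. The single Slc10a2 peak of each list overlapped at chromosome 8, 5085973 to 5086283 in the control list.

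Overlap was read as a share of each list, because the lists of member peaks differ in size. Of the 59 control peaks 18 (30.5%, 19.2 to 43.9%) shared at least 1 base with a case peak, against 35.5% of all control peaks. Of the 29 case peaks 18 (62.1%, 42.3 to 79.3%) shared at least 1 base with a control peak, against 35.3% of all case peaks. Exactly equal coordinates were shared by 8 peaks, 13.6% of control and 27.6% of case member peaks. Over all peaks these shares were 9.40% and 9.34%. Of peaks at or above the median fold of their own list, 12.5% of control and 30.8% of case member peaks were overlapped, 4 peaks in each list, against 26.2% of all control and 26.2% of all case peaks at this setting. The number overlapped was 18 in each list, and the shares of member peaks differ because the lists hold 59 and 29 of them. Peaks of 1 gene are not independent, which these intervals do not allow for, so they are too narrow.

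**Figure D5:**
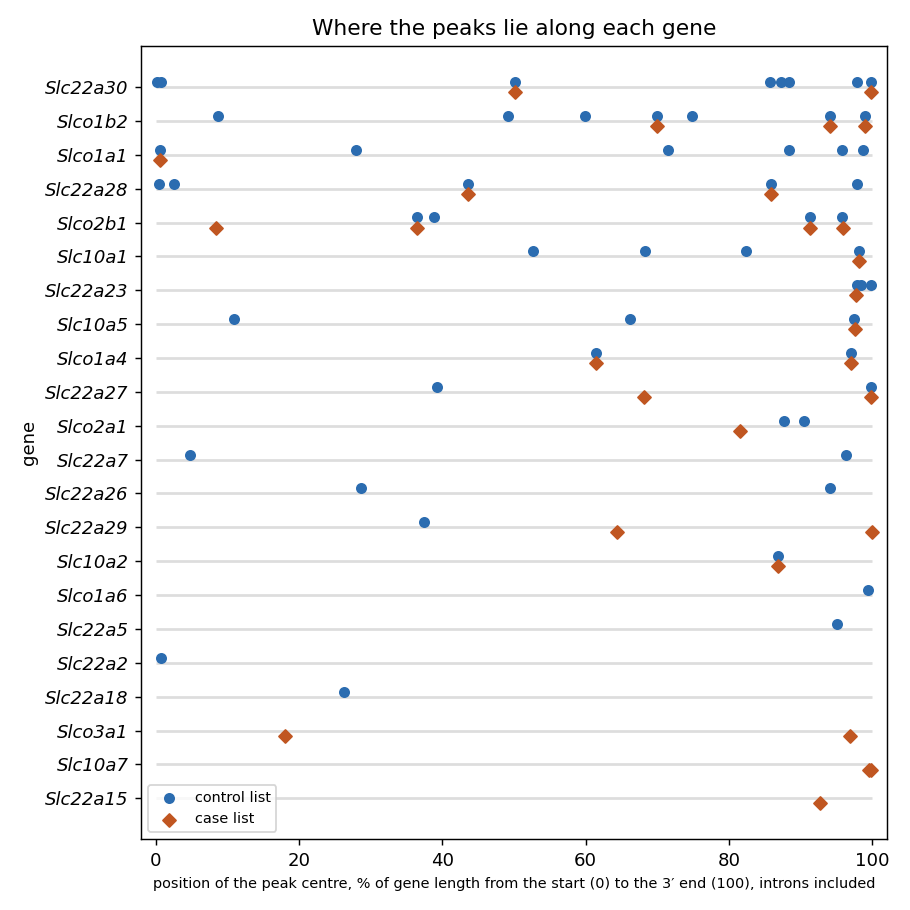
Position of each peak centre along its gene, in percent of the gene length with introns, from the start (0) to the 3′ end (100), as circles for the control list and diamonds for the case list. Of the peaks drawn, 21 of 56 control and 15 of 28 case peaks lie in the last 10%. Positions were not computed for the peaks of other genes.

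Along the genes, 21 of the 59 control peaks and 16 of the 29 case peaks had their centre in the last 10% of the gene length, and 9 and 2 in the first 10%. The median position was 74.8% for control peaks and 92.4% for case peaks. Positions were not computed for the peaks of other genes. A difference particular to these genes therefore cannot be told apart from a difference between the whole lists. Introns are included, so these are positions on the gene and not on the mature mRNA.

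Some peaks lay in genes with few or no input fragments. Slc22a2 and Slco1a6, an organic anion carrier known from mouse kidney, each had 1 control peak while listed at 0 in both inputs. Slc10a7 had 2 case peaks and 0 fragments in case. Slc22a28 and Slc22a29, at most 14 fragments in an input, together had 6 control and 4 case peaks. A fold enrichment over so little input is uncertain. Within the cluster on chromosome 19, 4 peak lengths recurred in different genes and covered 8 of 23 peak intervals. A peak of 124 bases was listed in Slc22a28 (8101370 to 8101493) and in Slc22a30 (8370081 to 8370204), in both lists in each case. Lengths of 116, 121 and 231 bases were likewise shared between pairs of genes of the cluster. These genes are close copies, so which of them a peak belongs to is uncertain.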

How the data were processed

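Per the submitters' processing notes, the tools were HISAT2 2.0.4, Cufflinks, Cuffdiff and cutadapt 1.9.3 on mm10, in no stated role or order. The authors deposited FPKM per gene, and beside it a signal headed as counts which moves at low levels in equal steps (of 1.085 for control and 0.9271 for case), so it is not a raw count. Dividing by the step gave fragments, of which 92.6% and 91.7% of the values above 0 came out whole within 0.02. The remainder was not whole and was rounded to whole fragments for the counts and intervals given. Besides these intervals no count test was run. Among the member values above 0, 6 were not whole. Per the file headers, the peak lists give a fold enrichment (a ratio), a score (a p-value on a negative log10 scale) and a false discovery rate in percent for each peak. Peak names begin with MACS, with no settings stated in the sources used here. Peaks were called per library.

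Values of 8 expression columns and 4 peak lists, named by numbers that match no label, were not used in any step. Their gene names alone were read to apply the rule for members: the same 47 genes were listed, and 9 of 6227 peaks of these lists were assigned to 8 of them. The test planned for 2 or more libraries per genotype could not be run. The 13 mitochondrial genes were set aside. The percentages of fragments in them were 23.9 and 27.6. Ratios of fragments are scaled by the authors' step and have exact Clopper-Pearson intervals, and fragments exact Poisson ones. The steps were tested on simulated data. Members with a mean of at least 1 FPKM are named, except 1 that is counted but not reported here; of the others, those with a peak or at least 0.5 FPKM in an input; of the lists, the largest 2 differences in each direction. Alb, Slc51a, Slc51b, the kidney carriers at 0 and the cholangiocyte and kidney markers at 0 were named after their values were seen. The members and lists were chosen with earlier results of these data known. Promoters were read from RefSeq on GRCm38.p6. Python 3.11.15, pandas 2.3.3, NumPy 2.4.6 and SciPy 1.17.1 were used. Coordinates are on mm10 and count from 1.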

Additional observations from a re-analysis of the deposited data

How the results depend on the processing

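With quantile normalization 7 of the 18 compared transporters, 24 related genes of the 4 lists and 3 of 11 hepatocyte markers were higher in the case input, and the median log2 difference of the hepatocyte markers was 0.59. With equal non-mitochondrial totals 6 transporters and 22 related genes were higher and 4 related genes lower, and the medians were 0.66 for the transporters, 0.79 for the related genes and 1.05 for the hepatocyte markers. With median centring 4 related genes were lower. Without the level limit 2 transporters were lower, the median over all 47 was 0.00, with 16 of them at 0 in both inputs, and that of the markers of other cells was -1.63. With a mean of at least 5 FPKM 0 transporters and 0 related genes were lower and 0 markers of other cells higher. Of all 4119 genes at that limit 1542 were higher and 369 lower. Pseudocounts of 0.1 and 0.5 each gave 15 transporters higher, and the deposited count-like values gave 13. The calls over all 9584 genes rose as well, from 2260 higher as deposited to 3032, 2658 and 2978 in these settings. Of the 18 transporters 9 kept their call in all 6 settings. The causes were not tested. For peaks at or above the median fold of their list there were 32 control and 13 case peaks of these genes, the latter in 10 genes, with 12.5% and 30.8% overlapped. Among the 5000 peaks of highest fold of each list there were 21 and 9, the latter in 8 genes. Other peak settings moved no count by over 1.5 times. No paired analysis was possible because each genotype had 1 usable library, and for the same reason no library could be left out. A search for m6A motifs in the peaks and its window alternative were not run, because no genome was used here. With 18 control fragments, the depth limits the Slco1a1 ratio to an interval of 18.4 to 49.7.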
